A study of Mus musculus with 6 samples.

Results

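The interferon-stimulated genes are the set of transcripts that a cell switches on when interferon reaches its receptors. The set described here was a list of 35 gene symbols, listed by name, though with earlier results of these data known. All 35 were found among the 23091 symbols of the 6 deposited gene tables. CD4 T cells were taken from 7-week-old C57/Bl6j mice that were wild-type (WT) or had no NLRP3 (NLRP3KO), a protein that senses danger signals and starts the assembly of an inflammasome. From each genotype, naive cells of spleen and lymph nodes made 1 library. Cells cultured toward T helper type 2 (Th2) made 1 library at 3 and 1 at 6 days, with IL-4 at 10 ng/ml on surfaces carrying antibodies to CD3 and CD28. An antibody that blocks interferon gamma was present in all 4 Th2 cultures, WT and NLRP3KO alike. The sources used here do not give the knockout allele, whether it is limited to some cells, or how many animals each library came from.

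Interferons alpha and beta bind one receptor and interferon gamma another, and both signal through Janus kinases to STAT transcription factors. STAT2 and IRF9 are part of a complex that binds the interferon-stimulated response element (ISRE), whereas STAT dimers bind the gamma-activated site (GAS). The products of the induced genes sense foreign nucleic acids, block steps of virus replication, or feed back on the pathway. Naive T cells are known to hold a low level of many of these transcripts without infection, which is attributed to basal interferon signalling.

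The start regions of the set carried the ISRE core more often than those of genes at large. RefSeq promoters (GRCm38.p6) were matched by symbol for 25 of the 35 genes, and the 250 bases before the transcription start were searched on both strands. The ISRE core, GAAA then any 2 bases then GAAA (on the other strand TTTC, any 2 bases, TTTC), was present in 11 of 25 genes (44%) against 3.46% of 27025 genes in the same table. The GAS core, TTC then any 3 bases then GAA, which reads the same on both strands, was present in 6 of 25 (24%) against 8.13%. A match is a description of letters and not evidence that a factor was bound. The promoters of 5 genes are printed because these genes appear in the naive genotype comparison on opposite sides (Ifit3 and Oas1a against Ifit1 and Rsad2) or because the sites overlap each other (Isg15). Matches to either core are in capitals, the rest is in lower case, and each is written 5′ to 3′ on the gene's strand and ends just before the start site.
Ifit1, chr19:34640639-34640888, plus strand: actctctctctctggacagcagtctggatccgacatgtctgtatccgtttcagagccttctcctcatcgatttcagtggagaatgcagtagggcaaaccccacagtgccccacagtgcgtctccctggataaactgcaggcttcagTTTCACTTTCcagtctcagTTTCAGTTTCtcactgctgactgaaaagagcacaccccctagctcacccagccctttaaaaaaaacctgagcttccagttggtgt
Ifit3, chr19:34583279-34583528, plus strand: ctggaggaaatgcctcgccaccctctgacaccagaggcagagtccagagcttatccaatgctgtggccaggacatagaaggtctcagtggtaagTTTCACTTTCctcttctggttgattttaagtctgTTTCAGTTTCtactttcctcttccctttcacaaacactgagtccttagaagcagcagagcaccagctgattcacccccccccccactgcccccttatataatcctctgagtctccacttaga
Isg15, chr4:156200819-156201068, minus strand: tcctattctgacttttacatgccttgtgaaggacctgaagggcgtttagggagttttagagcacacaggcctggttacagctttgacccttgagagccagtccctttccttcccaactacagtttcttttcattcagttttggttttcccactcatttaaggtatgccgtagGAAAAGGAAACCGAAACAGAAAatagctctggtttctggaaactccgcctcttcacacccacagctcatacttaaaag
Oas1a, chr5:120907526-120907775, minus strand: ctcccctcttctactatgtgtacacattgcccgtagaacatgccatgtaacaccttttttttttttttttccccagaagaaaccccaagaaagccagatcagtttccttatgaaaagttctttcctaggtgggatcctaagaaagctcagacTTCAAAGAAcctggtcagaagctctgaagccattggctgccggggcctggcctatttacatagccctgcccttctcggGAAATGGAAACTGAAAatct
Rsad2, chr12:26456453-26456702, minus strand: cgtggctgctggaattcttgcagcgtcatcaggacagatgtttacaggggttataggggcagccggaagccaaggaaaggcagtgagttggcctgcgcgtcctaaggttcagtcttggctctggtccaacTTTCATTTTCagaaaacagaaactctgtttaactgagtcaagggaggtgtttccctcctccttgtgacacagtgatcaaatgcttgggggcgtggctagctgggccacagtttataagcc
The Ifit1 and Ifit3 windows each held 2 ISRE cores, at 104 and 85 bases before the start in Ifit1 and at 156 and 122 in Ifit3. In Isg15, 3 cores overlapped at 78, 72 and 66 bases. Rsad2 had 1 core at 120 bases. Oas1a had 2 overlapping cores at 20 and 14 bases, and its window also held a GAS core further upstream. All distances are to the RefSeq start. For Ifit3 and Oas1a the bases after the window were not found near the start of a GENCODE transcript, so their distances are less certain.

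The deposited unit is FPKM, fragments corrected for transcript length and for the fragments sequenced in the library, and all FPKM printed here are as deposited. Each FPKM came with a lower and an upper confidence bound from the authors, printed in parentheses. The bounds concern the estimate in 1 library and not the spread between animals. The FPKM of every gene of the set lay within its bounds, but those of some abundant genes outside the set did not. With 1 library per group, a comparison of 2 libraries has no replicate check and no p-value. To set libraries side by side, FPKM were multiplied by a factor from the median ratio over the 1059 genes whose FPKM reached 1 in every library; the result is called scaled FPKM. This multiplied naive WT by 0.328, naive NLRP3KO by 0.245 and the Th2 libraries by 1.62 to 2.02. The FPKM themselves gave the number of fragments behind each value (see the processing), which was 1927097 and 1606213 fragments on genes in the naive libraries but 6386 to 36035 in the Th2 libraries. Purified mRNA went into the naive libraries and RNA depleted of ribosomal RNA into the Th2 libraries.

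T cell markers were detected in each library, with 10 of 10 listed genes above 0 in both naive libraries and 6 to 10 in the Th2 libraries. Between the naive libraries, 4 of the 10 were higher in NLRP3KO with bounds apart after scaling and 3 lower, such as Cd3e at a scaled ratio of 1.498 and Cd3d at 0.68. Over all genes, 6.23% were higher and 8.66% lower by the same rule. The FPKM of Cd3d, Cd3e, Cd3g and Thy1 lay above their own upper bounds in both naive libraries, so these calls are uncertain. Gata3, the transcription factor that defines Th2 cells, had FPKM of 15.6 and 14.4 in WT and NLRP3KO at day 3 and of 11.0 and 5.03 at day 6. The Th2 cytokine genes Il5 and Il13 were listed at 0 in all 4 Th2 libraries, and Il4 was above 0 only in WT at day 3, at 3.77. For Nlrp3 the naive WT library gave 0.0569 and each other library 0, so the targeted gene could not check the genotype labels. In naive cells, 8 of 9 B cell markers were lower in NLRP3KO with bounds apart, beside 8.66% of all genes. Their summed FPKM was 204 in WT and 112 in NLRP3KO. Of the other lists, 1 of 11 myeloid and 1 of 7 natural killer cell markers were lower by the bounds. Among 5 erythroid markers 2 were lower and 1 was higher, and of 2 CD8 T cell markers 0 had bounds apart. Plasmacytoid dendritic cells are a strong source of interferon alpha. Their list of 6 genes summed to an FPKM of 13.2 in naive WT and 16.2 in naive NLRP3KO, and after scaling to 4.32 and 3.96. The defining gene Siglech was at 0 and 0.29, Pacsin1 at 7.92 and 13.4, and Tcf4, lower in NLRP3KO with bounds apart, at 2.01 and 0.970. The part of other cells in the results below was not tested, and in these bulk samples fewer cells of a type and less RNA per cell cannot be told apart.

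All 35 genes were expressed in naive cells of both genotypes. Their median FPKM was 9.43 in WT and 14.2 in NLRP3KO, and they ranged from 0.878 (Mx2) to 76.3 (Ifi47) in WT. In NLRP3KO the range ran from 1.25 (Rsad2) to 95.7 (Ifi47). Together the 35 genes took 0.292% of the fragments on genes in naive WT and 0.356% in naive NLRP3KO. The same order of abundance held at the top in both libraries, where Ifi47, Irf1 and Samhd1 were the 3 highest.

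**Figure D1:**
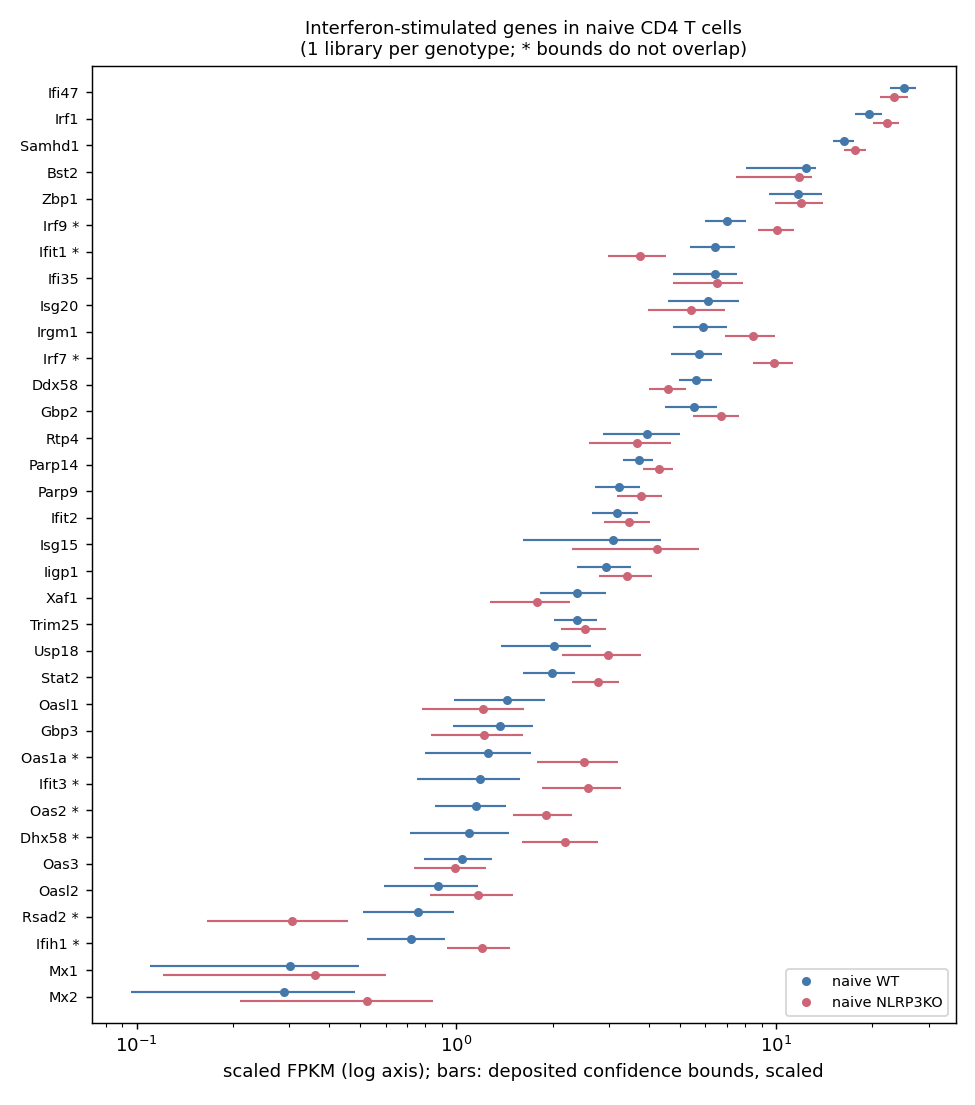
Scaled FPKM of the 35 genes in naive WT (blue) and naive NLRP3KO (red) on a log axis, with bars for the deposited confidence bounds after scaling, sorted by the WT value, 1 library per genotype. Stars mark the 9 genes whose bars do not overlap, 7 of them higher and 2 lower in NLRP3KO.

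Between the naive genotypes the set as a whole differed little, while single genes differed in both directions. On the log2 scale of scaled FPKM plus 1, no gene of the 35 was at least 2-fold higher in NLRP3KO, against a background of 0.21% of 9985 genes, and none was at least 2-fold lower, against 2.32%. The pseudocount of 1 equals an FPKM of 3.05 in naive WT and 4.08 in naive NLRP3KO, so this scale compresses the low genes. A gene with a scaled WT level below 1, such as Rsad2 at 0.755, could not be called at least 2-fold lower on it. The median difference was 0.17 for the 35 genes and 0.01 for all 9985. After scaling, 24 genes were higher in NLRP3KO and 11 lower. The split depended on the scaling: as deposited 33 were higher and 2 lower, and with scaling by fragments on genes 28 were higher and 7 lower. The scaled levels summed to 174 in WT and 192 in NLRP3KO, a ratio of 1.10.

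A second way to read single genes is to ask whether the bounds of the 2 libraries stay apart after scaling, a rule added after the values were seen. By this rule 7 of 35 genes (20%) were higher in NLRP3KO, where the background was 6.23% of all genes. These were Irf7, Irf9, Ifih1, Dhx58, Oas1a, Oas2 and Ifit3. Lower in NLRP3KO were 2 of 35 (5.71%, background 8.66%), Ifit1 and Rsad2. As deposited, without scaling, 19 genes had bounds apart and higher (background 27.8%) and none lower (2.39%). Scaled by fragments on genes, 12 were higher (background 11.4%) and 2 lower (6.02%). The 7 genes named here were higher with bounds apart under all 3 scalings. Ifit1 and Rsad2 had bounds apart after either scaling but not as deposited, though their FPKM were lower in NLRP3KO there as well.

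The sensors of foreign RNA and DNA are 4 of the genes. Ifih1 encodes MDA5, a cytosolic sensor of long double-stranded RNA. Its FPKM was 2.19 (1.60 to 2.80) in naive WT and 4.91 (3.81 to 6.01) in naive NLRP3KO, and its ratio of scaled FPKM, NLRP3KO over WT, was 1.67. Dhx58 encodes LGP2, which tunes the other RNA sensors. It had 3.33 (2.18 to 4.44) in WT and 8.93 (6.53 to 11.3) in NLRP3KO, a scaled ratio of 2.00. Ddx58 encodes RIG-I, the sensor of RNA ends, and differed the other way within overlapping bounds. Its FPKM was 17.1 (15.1 to 19.2) in WT and 18.8 (16.3 to 21.3) in NLRP3KO, a scaled ratio of 0.82. Zbp1, a sensor of Z-form nucleic acid that can start necroptosis, was the most abundant of the 4, at 35.7 in WT and 48.9 in NLRP3KO, a scaled ratio of 1.03 with overlapping bounds. The 2 sensors with separate bounds were thus the low ones, and the 2 abundant sensors had overlapping bounds.

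The transcription factors that carry the signal were higher in NLRP3KO in 4 of 4 cases after scaling, 2 of them with bounds apart, and the median log2 difference of the 4 was 0.40. Irf7, the factor that amplifies interferon alpha production, had an FPKM of 17.5 (14.3 to 20.7) in naive WT and 40.3 (34.5 to 46.2) in naive NLRP3KO. These values rest on about 165 and 258 fragments, and the scaled ratio was 1.72. Irf9, the DNA-binding subunit of the ISRE complex, had 21.4 (18.3 to 24.5) in WT and 41.1 (35.8 to 46.4) in NLRP3KO, a scaled ratio of 1.43. Stat2, its partner, had 6.07 (4.93 to 7.17) and 11.3 (9.36 to 13.2), a ratio of 1.39 with bounds that overlapped after scaling. Irf1, a factor induced mainly by interferon gamma, was among the most abundant genes at 59.4 (53.6 to 65.1) in WT and 90.7 (82.2 to 99.1) in NLRP3KO, a ratio of 1.14 with overlapping bounds. The promoter window of Irf7 held neither core.

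Of the genes around the ubiquitin-like protein ISG15, none had bounds apart, and all 3 were higher in NLRP3KO after scaling. Isg15 itself had an FPKM of 9.43 (4.92 to 13.3) in naive WT and 17.3 (9.35 to 23.4) in NLRP3KO, from about 25 and 31 fragments, a scaled ratio of 1.37. Usp18, which removes ISG15 and also holds back the interferon receptor, had 6.17 (4.20 to 8.03) and 12.1 (8.71 to 15.4), a ratio of 1.47. Trim25, a ubiquitin ligase that acts on RIG-I, had 7.27 and 10.3. The transcript of Isg15, 756 bases, is the shortest of the set.

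The group with the widest spread was that of the 9 RNA-binding and RNA-cutting proteins, with 3 genes higher and 1 lower by the bounds. Ifit1 and Ifit3 encode proteins that bind foreign RNA and lie 51907 bases apart on mm9 chromosome 19. Ifit3 (chr19:34658019-34663472) had an FPKM of 3.60 (2.30 to 4.82) in naive WT and 10.5 (7.56 to 13.4) in naive NLRP3KO, a scaled ratio of 2.18. Ifit1 (chr19:34715379-34724499) had 19.7 (16.3 to 22.6) in WT and 15.4 (12.2 to 18.5) in NLRP3KO, a ratio of 0.58. Per length, Ifit1 was therefore well above Ifit3 in WT, whereas the 2 were closer in NLRP3KO. Ifit2, 6995 bases from Ifit3, had levels between theirs, 9.68 and 14.2, a ratio of 1.09. Neighbouring Ifit genes are similar in sequence, and how reads shared among copies were assigned is not given in the sources used here, so single Ifit values are uncertain.

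The oligoadenylate synthetases make the second messenger that activates RNase L. Oas1a (chr5:121346266-121357534 on mm9) had an FPKM of 3.83 (2.43 to 5.21) in naive WT and 10.3 (7.32 to 13.1) in naive NLRP3KO, a scaled ratio of 2.00 on about 30 and 54 fragments. Oas2 had 3.50 (2.604 to 4.36) and 7.76 (6.15 to 9.40), a ratio of 1.66. Oas3, 3250 bases from Oas2, had 3.18 and 4.04, a ratio of 0.95 with overlapping bounds. The related Oasl1 and Oasl2 had 4.38 and 2.66 in WT and 4.96 and 4.78 in NLRP3KO, also with overlapping bounds. Isg20, an RNA exonuclease, had 18.6 and 22.2, a ratio of 0.89. The family was not uniform: Oas1a and Oas2 had separate bounds and the other 3 did not, and reads shared among these related genes make the single values uncertain.

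Among the 5 proteins that block virus entry, budding or replication, 1 was lower in NLRP3KO with bounds apart. Rsad2 encodes viperin, a radical SAM enzyme that makes a chain-ending nucleotide. It had an FPKM of 2.30 (1.56 to 3.00) in naive WT and 1.25 (0.679 to 1.87) in naive NLRP3KO, from about 38 and 14 fragments, a scaled ratio of 0.40. This was the lowest ratio of the set. Samhd1, a nucleotide hydrolase that starves viruses of DNA precursors, had 49.7 (45.9 to 53.6) and 72.2 (66.6 to 77.9), a ratio of 1.09 with overlapping bounds on 852 and 842 fragments. Bst2, the tetherin that holds budding virus at the membrane, had 37.8 and 48.0, a ratio of 0.95. Mx1 and Mx2, dynamin-like GTPases, were the lowest genes of the set in WT, at 0.920 and 0.878, and had 1.48 and 2.15 in NLRP3KO.

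The GTPases that attack the vacuoles of intracellular parasites and bacteria made up the largest share of the summed scaled FPKM in naive WT, 40.8 of 174, and the second largest in naive NLRP3KO, 43.2 of 192. Ifi47, the most abundant gene of the set, had an FPKM of 76.3 (69.0 to 83.6) in naive WT and 95.7 (86.3 to 105) in NLRP3KO, a scaled ratio of 0.94. Irgm1, a regulator of the same family, had 18.0 (14.5 to 21.4) and 34.5 (28.3 to 40.5), a ratio of 1.43 with bounds that just overlapped after scaling. Gbp2 had 16.9 and 27.4, a ratio of 1.21, and Iigp1 had 8.94 and 14.0, a ratio of 1.17. Gbp3, a neighbour of Gbp2, had 4.17 and 4.97, a ratio of 0.89. No gene of this group had bounds apart.

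The remaining genes also had overlapping bounds. Parp9 and Parp14, ADP-ribosyltransferase family members, had 9.82 and 11.3 in WT and 15.4 and 17.6 in NLRP3KO, ratios of 1.17 and 1.16. Ifi35 had 19.7 and 26.7, Rtp4 had 12.1 and 15.0, and Xaf1, a gene linked to cell death, had 7.28 and 7.29. The scaled ratio of Xaf1 was 0.75, and its deposited values were almost level.

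Transcript length moved with the genotype difference across all genes in these 2 libraries. Lengths are of the longest annotated transcript in GENCODE (GRCm38), matched by symbol for 98.9% of the 9985 genes and for all 35 of the set. The genes were put into 5 classes of equal size by length. In class 1, the shortest, up to 1654 bases, the median log2 difference was -0.23. In classes 2, 3 and 4 it was 0.03, 0.08 and 0.08, and in class 5, from 4869 bases, 0.01. The 35 genes had a median length of 2597 bases, between 756 and 7417. In classes 1 to 5 their median differences were -0.03, 0.25, 0.06, 0.10 and 0.17, also lowest in class 1. Their Spearman correlation of length with the difference was -0.05 (n = 35 genes), against 0.18 over 9872 genes. Only 4 of the 35 fell in class 1, so this correlation cannot tell whether the set follows the relation over all genes. Both correlations are across genes that share the same 2 libraries and are given as a description.

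The 4 short genes of the set were Isg15, Isg20, Bst2 and Ifi35, and all 4 lay above the median of class 1. Of the 13 genes in class 2, 9 lay above its median, among them Irf7, Dhx58, Ifit3 and Oas1a. In classes 3, 4 and 5, 3 of 7, 5 of 8 and 3 of 3 did. Subtracting the median of each gene's class left the set's median difference at 0.13, compared with 0.17 before. The 9 genes with bounds apart were between 1745 (Ifit3) and 5470 (Ifih1) bases long, so none came from class 1.

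**Figure D2:**
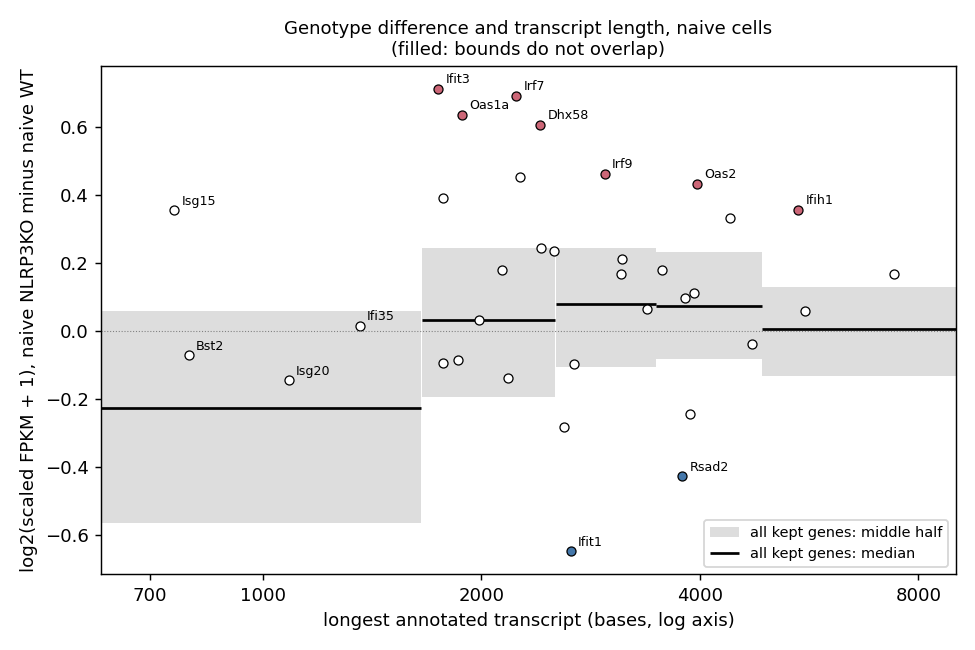
Length of the longest annotated transcript (log axis, which begins within the shortest class) against the difference in log2(scaled FPKM + 1), naive NLRP3KO minus naive WT; points are the 35 genes, filled where bounds are apart, and grey boxes and black lines are the quartile range and the median of all genes in each of 5 length classes. All 4 points in the shortest class lie above its median of -0.23.

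The presence of the ISRE core did not sort the genes by direction. Of the 11 genes with the core, 6 were higher in NLRP3KO after scaling, 2 of them with bounds apart (Ifit3 and Oas1a), and 2 were lower with bounds apart (Ifit1 and Rsad2). Of the 14 matched genes without it, 9 were higher, 3 of them with bounds apart, and none was lower with bounds apart. The medians were 0.24 with the core and 0.08 without. Thus Ifit1 and Ifit3, with the sequences TTTCACTTTC and TTTCAGTTTC in both windows, differed in opposite directions.

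In the rest of the pathway, differences by the bounds between the naive libraries fell among the kinases and transcription factors and the negative regulators. Of 12 interferon ligand genes, 10 were listed at 0 in both naive libraries; Ifng had FPKM of 1.70 in WT and 1.25 in NLRP3KO, and Ifnk 0 and 0.502. None of the 12 was above 0 in a Th2 library. None of 6 receptor chains had bounds apart, with Ifngr1, the ligand-binding chain for interferon gamma, at 24.3 and 37.2 and Ifnar1 at 12.3 and 16.4. Of the kinases and transcription factors, Irf3, which is activated downstream of the nucleic acid sensors, was higher in NLRP3KO by the bounds, at 22.3 and 41.9 (scaled ratio 1.40). Among 8 negative regulators 3 were higher, led by Socs3, an inhibitor of cytokine receptor kinases, at 13.05 and 32.2 (1.84), with Ptpn6 and Trim28. The background was 6.23% of all genes, and these lists are short. None of 10 sensing adaptors and kinases had bounds apart. The receptors and sensing adaptors thus gave no difference by the bounds. For the ligands this could not be judged, since 1 of the 12 reached an FPKM of 1 in a naive library.

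A further list held 63 other interferon-induced genes present in the tables, of which 62 reached an FPKM of 1 in a naive library. By the bounds after scaling, 9 of these were higher in NLRP3KO and 8 lower, beside the 6.23% and 8.66% of all genes. The higher genes were Tap1, Pml, Cd274, Lgals3bp, Parp10, Uba7, Adar, Sp100 and Nlrc5. Tap1, a peptide transporter for antigen presentation, had FPKM of 39.9 in WT and 88.8 in NLRP3KO, a scaled ratio of 1.66. The lower genes were B2m, Ifi27l2a, Ms4a4b, Ms4a4c, Ly6c1, Slfn5, Ifi203 and Gbp7; of these, Ms4a4b, Slfn5 and Ifi203 had the higher FPKM in NLRP3KO as deposited. B2m, the light chain of MHC class I, had 2827 and 2576 (0.68), and Ifi27l2a had 368 and 280 (0.57). The FPKM of B2m, Ifi27l2a and Ms4a4b lay above their own upper bounds in both naive libraries. In WT these bounds were 2332 for B2m and 268 for Ifi27l2a, so the calls by the bounds are uncertain for these genes. The list's median log2 difference was 0.07.

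In the Th2 libraries the set was near the limit of detection. Of the 35 genes, 11 were above 0 in WT at day 3, 12 in NLRP3KO at day 3, 14 in WT at day 6 and 2 in NLRP3KO at day 6. Over all genes the shares above 0 were 28.8%, 27.2%, 29.4% and 11.9%. At day 6 the NLRP3KO library had 6386 fragments on genes, the fewest of all. Of the 140 values (35 genes in 4 libraries), 101 were listed at 0, and 20 of the other 39 corresponded to about 1 fragment. A value of 0 allows up to 3 fragments, which for Irf7 is an FPKM of 2.37 in WT at day 3 and of 11.1 in NLRP3KO at day 6. For this reason the genes were pooled.

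In all 4 Th2 libraries 16 genes were listed at 0. They were Irf7, Dhx58, Isg15, Usp18, Ifit1, Ifit3, Oas1a, Oas2, Oasl1, Oasl2, Isg20, Mx1, Mx2, Rsad2, Iigp1 and Xaf1. Samhd1 and Stat2 were the 2 genes above 0 in all 4. The FPKM of Samhd1 were 2.21 in WT and 6.65 in NLRP3KO at day 3, and 1.90 and 8.24 at day 6, from about 5.05, 11.9, 4.04 and 4.04 fragments. Stat2 had 0.390 and 1.98 at day 3 and 0.418 and 1.82 at day 6, from 1 fragment in each library but NLRP3KO at day 3. NLRP3KO was thus the higher value at both days for these genes, with bounds that overlapped.

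The GTPases were seen mainly in WT at day 6. Ifi47 had FPKM of 1.08 and 1.38 in WT and NLRP3KO at day 3, and of 6.96 and 0 at day 6. Gbp2 had 0.717 and 0 at day 3 and 5.38 and 0 at day 6. Gbp3 was above 0 only in WT at day 6, at 0.712, and Irgm1 only in NLRP3KO at day 3, at 1.01. The GTPase group summed to about 14.6 fragments in WT at day 6, to 2.09 and 2.08 in WT and NLRP3KO at day 3, and to 0 in NLRP3KO at day 6.

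Other genes appeared in 1 to 3 Th2 libraries. Trim25 had 1.53 and 2.33 in WT and NLRP3KO at day 3 and 1.31 and 0 at day 6. Zbp1 had 2.61 and 3.31 at day 3 and was at 0 in both at day 6. The following values are in the order WT then NLRP3KO at day 3, WT then NLRP3KO at day 6. Parp9 had 0.484, 1.85, 1.27 and 0. Parp14 had 0, 0.296, 1.00 and 0. Irf9 had 0, 0.957, 2.42 and 0, and Irf1 had 0, 2.16, 0.911 and 0, so both transcription factors were seen in NLRP3KO at day 3 and in WT at day 6. Ifih1 had 0, 0.402, 0.680 and 0, and Oas3 had 0.362, 0.920, 0 and 0. Ifi35 had 1.36, 0, 1.46 and 0. Single values above 0 were 2.67 for Bst2 and 0.435 for Ifit2 in WT at day 3, and 0.370 for Ddx58 and 1.24 for Rtp4 in WT at day 6. With these numbers of fragments no order between libraries can be read for a single gene, and no gene of the set had bounds apart in any comparison among Th2 libraries. Among all genes this was also rare. At day 3, 0.87% were higher and 0.626% lower in NLRP3KO, and at day 6, 0.187% and 0.675%. From day 3 to day 6, 0.179% were higher and 0.358% lower in WT, and 0.0576% and 0.307% in NLRP3KO.

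**Figure D3:**
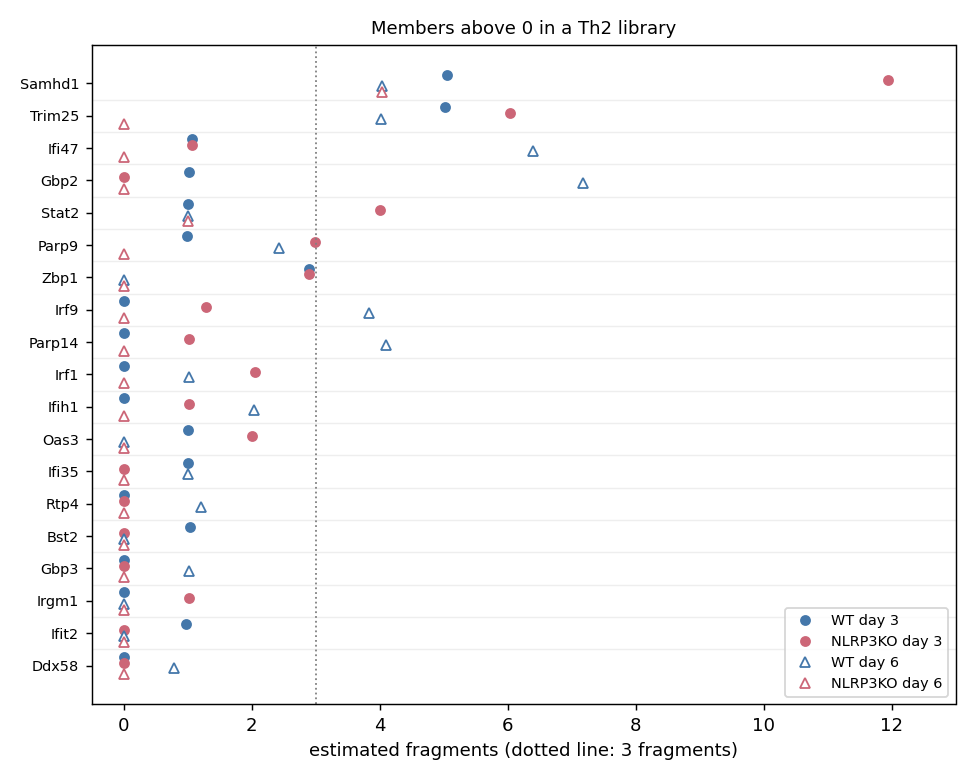
Estimated fragments per gene in the 4 Th2 libraries for the 19 genes above 0 in at least 1 of them (circles day 3, triangles day 6, blue WT, red NLRP3KO); the dotted line marks 3 fragments. Samhd1 in NLRP3KO at day 3 has the most, 11.9 fragments, and most points lie at or left of the line.

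Pooled over the set, NLRP3KO was higher than WT at day 3. The genes summed to about 37.3 fragments in NLRP3KO, 0.128% of its fragments on genes, and 21.1 in WT, 0.0613%. The ratio of shares was 2.09, with a 95% interval (exact, conditional on the total) of 1.19 to 3.75 that covers counting error only. Samhd1 gave 11.9 and 5.05 of these fragments, and without it the ratio was 1.87 (0.962 to 3.74), an interval that includes 1. By summed scaled FPKM the ratio was 1.48. Of 10 genes that reached an FPKM of 1 in either library, 6 were above 0 in both: Ifi47, Parp9, Samhd1, Stat2, Trim25 and Zbp1. Their median log2 difference was 0.73, beside 0.11 for the 3773 such genes of the table, out of 5749 that reached an FPKM of 1. Of the other 4, 2 were listed at 0 in each library.

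At day 6 the direction was the other way, with far fewer fragments. The set summed to about 5.04 fragments in NLRP3KO, 0.0790% of its fragments on genes, and 40.1 in WT, 0.111%. The ratio was 0.71 (0.220 to 1.79), which was not distinguishable from 1 at this depth. Samhd1 supplied 4.04 of the 5.04 fragments, and without it the ratio was 0.157 (0.00387 to 0.931). By summed scaled FPKM it was 0.343. Of 10 genes that reached an FPKM of 1 in either library, 8 were listed at 0 in NLRP3KO and entered through WT alone. Over all genes, 2178 of the 5336 at that level were above 0 in both libraries. The 2 genes of the set above 0 in both, Samhd1 and Stat2, were higher in NLRP3KO. The median log2 difference of the 2178 genes was 0.33.

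Between the days, WT at day 6 held more than WT at day 3, with 40.1 and 21.1 fragments and a ratio of shares of 1.81 (1.04 to 3.23). Without Samhd1 this was 2.14 (1.16 to 4.14). By summed scaled FPKM the ratio was 1.70, and 1.35 without Ifi47. The GTPases gave 14.6 of the 40.1 fragments at day 6 and 2.09 of the 21.1 at day 3. In NLRP3KO the ratio of day 6 over day 3 was 0.616 (0.190 to 1.57), and without Samhd1 it was 0.180 (0.00439 to 1.10). There 6 of 8 genes were listed at 0 at day 6, and Samhd1 and Stat2 were above 0 at both days. Over all genes, 2181 of the 5207 that reached an FPKM of 1 at either day were above 0 at both. The comparisons between genotypes and between days share libraries, so they are not separate pieces of evidence.

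The 6 libraries also form 3 pairs of genotypes, 1 per stage. A fit with stage as a block (limma on log2 of scaled FPKM plus 1, Benjamini-Hochberg adjustment over 9511 genes) was added after the values were seen. It called none of the 33 genes of the set that entered and none of all genes (0%), with a lowest adjusted p of 0.764. At an unadjusted p of 0.05 it called 0 of the 33, and 13 higher and 147 lower of all genes. In simulated data of this design the fit also called 0 of 200 genes changed by 3 on the log2 scale, so the absence of calls says nothing about the set. Samhd1 and Stat2 were the 2 genes of the set higher in NLRP3KO in all 3 pairs after scaling, with estimates of 1.01 ± 0.49 and 0.94 ± 0.51 (log2, SE). Over all 9511 genes, 532 were higher in all 3 pairs and 1060 lower. The 2 of 33 are thus close to the share over all genes, and 0 of the 33 were lower in all 3 pairs. A gene listed at 0 in both libraries of a stage could not count in either direction, so these shares say little about the set.

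Outside the set, 2 pathway genes had bounds apart between genotypes at day 3, both higher in NLRP3KO, where 0.87% of all genes were. Socs3 had FPKM of 3.21 in WT and 13.1 in NLRP3KO at day 3, and of 0.688 and 5.98 at day 6, where the bounds overlapped. Stat3, a known inducer of Socs3, had 2.29 and 10.2 at day 3 and 4.14 and 1.80 at day 6. Within the pathway lists, Socs3 was the gene with separate bounds in both the naive and the day 3 comparison.

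Relative to naive cells the set was lower at day 3 in both genotypes. Summed scaled FPKM in WT were 174 in naive cells and 27.9 at day 3, a ratio of 0.160, and 0.210 (0.130 to 0.321) by share of fragments. In NLRP3KO the sums were 192 and 41.3, a ratio of 0.216, and 0.360 (0.254 to 0.496) by share of fragments. In WT 22 of the 33 genes that reached an FPKM of 1 in either library were listed at 0 at day 3. Over all genes, 6085 of 9562 were above 0 in both libraries. The other 11 genes of the set had a median log2 difference of -1.07, beside -0.0011 for these 6085. In NLRP3KO 23 of 35 were listed at 0 at day 3, where 5873 of 10048 genes were above 0 in both. The other 12 had a median of -0.73, beside 0.02 for the 5873 genes. With genes at 0 included, the median over all genes was -0.52 in WT and -0.53 in NLRP3KO. Other lists fell as well. The summed scaled FPKM of the 10 T cell markers went from 606 to 151 in WT and from 572 to 164 in NLRP3KO. That of the 63 other interferon-induced genes went from 1927 to 272 and from 1565 to 350. The scaled sum of the 6 Th2 markers rose, from 5.06 to 49.2 and from 5.01 to 34.1. At day 3 only 3 of the 6 were above 0 in WT and 2 in NLRP3KO. This rise depended on the scaling: as deposited the sum went from 15.4 to 24.4 in WT and from 20.4 to 19.2 in NLRP3KO. The scaled sum of the 8 negative regulators went from 53.2 to 58.0 and from 64.8 to 79.8, without a rise of the list as a whole. Of the 8 genes, 4 were higher at day 3 in WT and 3 in NLRP3KO, with median log2 differences of 0.05 and -0.45. As deposited, their sums fell from 162 to 28.8 and from 265 to 44.9. Purified mRNA was used for every naive library and depleted total RNA for every Th2 library, so preparation and culture cannot be told apart.

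At their naive level many of these genes would have been detectable. Had each gene kept its scaled naive level, the WT day 3 library would have held about 123 fragments of the set, and 21.1 (13.1 to 32.2) were found, 5.82-fold fewer (3.81 to 9.40). The NLRP3KO day 3 library would have held about 122 and had 37.3, or 3.27-fold fewer (2.37 to 4.64). At day 6 the numbers were 126 against 40.1 in WT and 36.5 against 5.04 in NLRP3KO. The clearest single gene was Irf1, for which about 11.6 fragments corresponded to the naive level and none was found in WT at day 3. In NLRP3KO at day 3 about 11.8 corresponded to the naive level of Irf1, and its FPKM of 2.16 rests on about 2 fragments. Of 14 genes with at least 3 fragments by this reckoning in WT at day 3, 7 were listed at 0, namely Ddx58, Ifit1, Irf1, Irf7, Irf9, Irgm1 and Parp14. The same count was 4 of 14 in NLRP3KO at day 3, 5 of 14 in WT at day 6 and 2 of 3 in NLRP3KO at day 6. No such count over all genes is given here, so whether the set stands out by it cannot be said.

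By the bounds, 4 genes were lower at day 3 than in naive cells in each genotype, 12.1% of 33 in WT (background 6.49%) and 11.4% of 35 in NLRP3KO (5.66%). None was higher by the bounds (background 3.06% in WT and 2.72% in NLRP3KO). In WT these were Ifi47, Samhd1, Gbp2 and Ifit2, and in NLRP3KO Ifi47, Irf1, Irgm1 and Parp14. Ifi47 was on both lists, with scaled ratios of day 3 over naive of 0.0872 in WT and 0.104 in NLRP3KO. A gene listed at 0 at day 3 could not enter these counts. Some genes were at or above their scaled naive level. These were Trim25 in WT at both days and in NLRP3KO at day 3, Stat2 in NLRP3KO at both days, Oas3 in NLRP3KO at day 3, and Gbp2 and Ifih1 in WT at day 6. As deposited, without scaling, the FPKM of each of these genes was below its naive value.

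**Figure D4:**
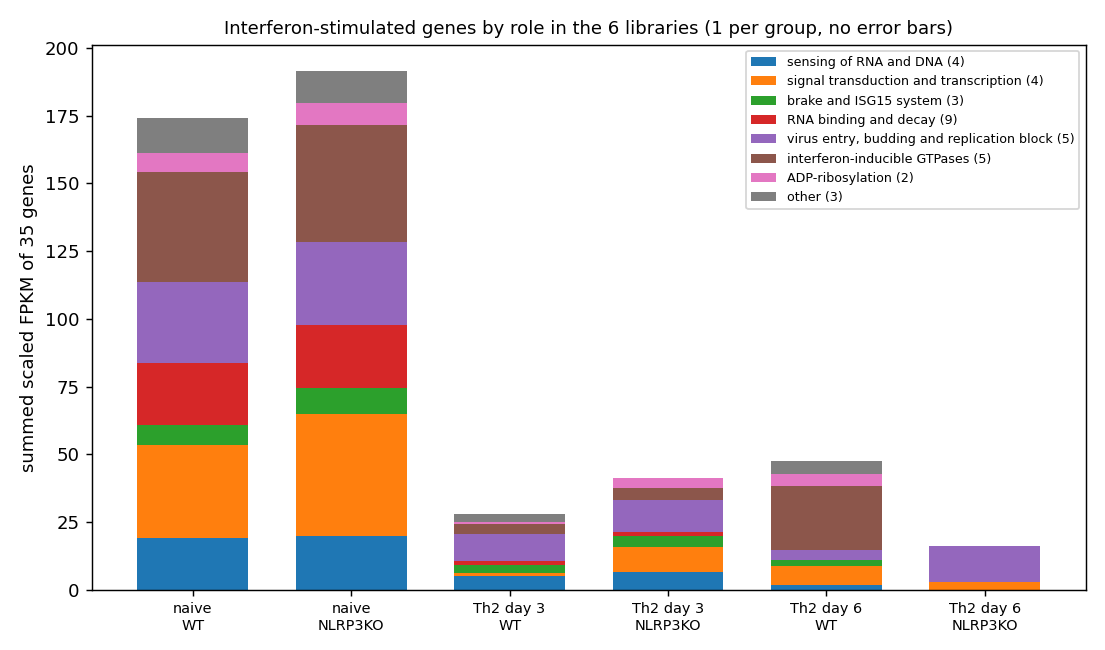
Summed scaled FPKM of the 35 genes in each of the 6 libraries, stacked by role, 1 library per group and no error bars. The stacks reach 174 and 192 in naive WT and NLRP3KO and 16.3 to 47.5 in the Th2 libraries, where the GTPases make up the largest part of WT day 6 and Samhd1's group most of NLRP3KO day 6.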

How the data were processed

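Per the file headers, the authors' table for each library lists every gene model with its FPKM, a pair of confidence bounds and a status. TopHat, Cufflinks and mm9 are named in the submitters' processing notes, without versions or annotation in the sources used here. Of 23700 entries per table, 285 marked as having too little data were left out. Because deposited FPKM are no counts, count models were not applied. A difference is log2(scaled FPKM + 1) in one library minus that in the other, over genes reaching an FPKM of 1 in either, and genes at least 2-fold apart were called.

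Fragment numbers were estimated. In single-exon genes resting on 1 fragment the upper bound equals 3 fragments, which gave the total behind each library's FPKM, between 129744 and 4571257. FPKM times that total and the longest annotated transcript, less a fitted fragment length, gave fragments; 32 of the 39 non-zero Th2 values of the set fell within 0.15 of a whole number. Where shorter isoforms are expressed these numbers are too high. PCR copies cannot be told apart, so intervals (exact Clopper-Pearson, 95%) cover counting error only. The steps were tested on simulated data.

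The genes, lists and comparisons were chosen with earlier results of these data known. All 35 genes are accounted for; those reaching an FPKM of 5 in a naive library have their FPKM in every library given. From the other lists, genes of high naive level are named, and genes with bounds apart, which were picked after their values were seen. A gene of the pathway lists is not reported here. mm9 coordinates count from 1. Alternatives were other scalings, pseudocounts, minimum levels and leaving out the most abundant gene. Python 3.11.15, pandas 2.3.3, numpy 2.4.6 and scipy 1.17.1 were used, with limma 3.58.1 in R 4.3.3 for the fit paired by stage.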

Additional observations from a re-analysis of the deposited data

Results flagged for a closer look

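The pooled genotype ratio of the 35 genes, NLRP3KO over WT by share of fragments on genes, lay on opposite sides of 1 at the 2 days of Th2 culture. It was 2.09 at day 3 and 0.71 at day 6. The difference between the days was not tested, since each day has 1 library per genotype, and the day 6 value rests on about 5.04 fragments in NLRP3KO.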

How the results depend on the processing

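A fit paired by stage, added after the data were seen, could not make calls at this number of libraries. In naive cells the count of genes at least 2-fold higher in NLRP3KO was 0, and it was 4 with FPKM as deposited and 1 with a pseudocount of 0.1, which also gave 1 gene at least 2-fold lower. The median difference was 0.59 with FPKM as deposited. The pooled naive ratio of 1.10 was 1.22 by share of fragments on genes and 1.47 as deposited. Without Samhd1 the NLRP3KO over WT ratio at day 6 was 0.157, and NLRP3KO day 6 over day 3 was 0.180. Day 3 over naive as deposited was 0.0261 in WT and 0.0297 in NLRP3KO, and by share of fragments 0.360 in NLRP3KO. The median and the pooled ratios kept their direction under the alternatives run, but single genes did not: 9 of the 11 genes lower after scaling were higher as deposited. Scaling by fragments on genes and the rule of separate bounds were added after the data were seen. The Th2 libraries hold too few fragments to compare single genes, and 1 library per group leaves the spread between animals unknown.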
